A study of Mus musculus with 4 samples.

Results

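The nuclear-encoded subunits of respiratory complexes I to IV were followed in mouse mammary basal cells. The members were a given list of 53 subunit genes, found by symbol among the 17630 genes of each library, with 32 in complex I, 4 in complex II, 7 in complex III and 10 in complex IV. Ndufa4, named after complex I, was counted with complex IV, to which its protein is now assigned. All 53 were found, and all 53 had a mean FPKM of at least 1 in each pair of libraries compared, so none was lost to the filter on low values. FPKM is the number of fragments per kilobase of transcript, scaled to the fragments sequenced in a library, and levels of different genes are compared here only on this per-length scale.

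The study addressed how signals of sympathetic nerves act on the mammary gland and its stem cells, and RNA-seq was made for 4 libraries of wild-type (WT) mouse basal cells, 1 per condition. The sorted control cells were primary basal cells of control mice without 6-OHDA (6-hydroxydopamine), a neurotoxin that destroys peripheral sympathetic nerve endings. The sorted 6-OHDA cells came from mice given 6-OHDA. In other 6-OHDA experiments the study's captions name saline-treated mice as controls. Control colonies and SP colonies were basal cells grown in Matrigel, without agonists or with SP, which is salbutamol (an agonist of the β2 adrenergic receptor) plus phenylephrine (an agonist of α1 receptors). The control colony library was read as a colony from its title, the partner of the SP library's, and from the series' design. The SP label carries the number 200 without a unit. The study describes basal cells as CD24-positive, CD29-high cells negative for blood and endothelial markers. The strain and ages of the mice and any pooling of animals are not given in the labels. All 4 groups share the WT genotype and the basal cell label. With 1 library per condition there is no replicate check, so each value below is a difference between libraries, with no test and no p-value.

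FPKM values summed to 508071 in sorted control cells, 517504 in sorted 6-OHDA cells, 577631 in control colonies and 588202 in SP colonies, and 16261, 16371, 15934 and 15756 genes had a value above 0. No read counts were used here. From the steps between low values, 1 FPKM on 1 kilobase stood for roughly 17.6, 16.7, 17.9 and 18.1 fragments in these libraries. On that rough scale the median member rested on at most about 800 fragments in sorted control cells and about 2000 in control colonies. The lowest member, Ndufa11, rested on at most about 67 and about 160. The scale was read with an assumed fragment length of 250 bases taken off each transcript, while these counts used full lengths. They are therefore too high, most of all for short transcripts.

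Oxidative phosphorylation is the process by which mitochondria pass electrons from NADH and succinate to oxygen and use the energy released to make ATP. Complex I takes electrons from NADH and complex II from succinate, complex III hands them on to cytochrome c, and complex IV gives them to oxygen, while complexes I, III and IV pump protons across the inner membrane. Most subunits are encoded in the nucleus and imported, and a few of complexes I, III and IV are encoded in mitochondrial DNA. The latter were not analysed here.

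The labelled cell type was checked against its markers. Of 8 basal markers none was at 0 in any library. Krt14, a keratin of basal cells, was the highest of them, at 3595 FPKM in sorted control cells, 2633 in sorted 6-OHDA cells, 3298 in control colonies and 6919.9 in SP colonies. The contractile markers were lower in colonies, to differing degrees. Acta2, an actin of smooth muscle, was at 1949 and 2575 FPKM in the sorted libraries and 402 and 722 FPKM in the colonies, Cnn1 at 515 and 537 FPKM and 30.4 and 61.8 FPKM, and Mylk, a myosin kinase, at 116 and 127 FPKM and 3.33 and 4.18 FPKM. Luminal markers summed to 1067, 959.7, 1511 and 1465 FPKM in the same order, and the luminal keratins Krt8, Krt18 and Krt19 were at 559.9, 375 and 112 FPKM in sorted control cells and 698, 503 and 211 FPKM in control colonies. Endothelial markers summed to 240.3 and 219 FPKM in the sorted libraries although the study counts basal cells as negative for endothelial markers, with Pecam1 at 107 and 93.03 FPKM, and to 11.95 and 3.13 FPKM in colonies. All 4 libraries therefore held basal keratins and also luminal ones, so the basal label does not describe all transcripts, the sorted libraries also held endothelial transcripts, and the colonies had lower contractile markers, of which Acta2 was still abundant.

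The members were among the abundant transcripts in every library. Their median was 52.4 FPKM in sorted control cells, 64.3 in sorted 6-OHDA cells, 111 in control colonies and 119.6 in SP colonies, against 3.85, 4.12, 6.0 and 5.65 FPKM for all listed genes. Their sum was 4357 and 5329 FPKM in the sorted libraries and 9357 and 9235 FPKM in the colonies, which was 0.858, 1.03, 1.62 and 1.57 percent of all FPKM. The colonies thus held the higher levels and the sorted control cells the lowest. In each of the 53 members both colony libraries lay above both sorted libraries, a pattern that 56.4% of 12282 genes averaging 1 FPKM or more over the 4 libraries also had, and in 41 members both colony values were at least 1.5 times both sorted values, as in 37.2% of these genes. The sorted control cells had the lowest of the 4 values for 52 members, the exception being Sdhd, and for 44.2% of these genes.

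**Figure D1:**
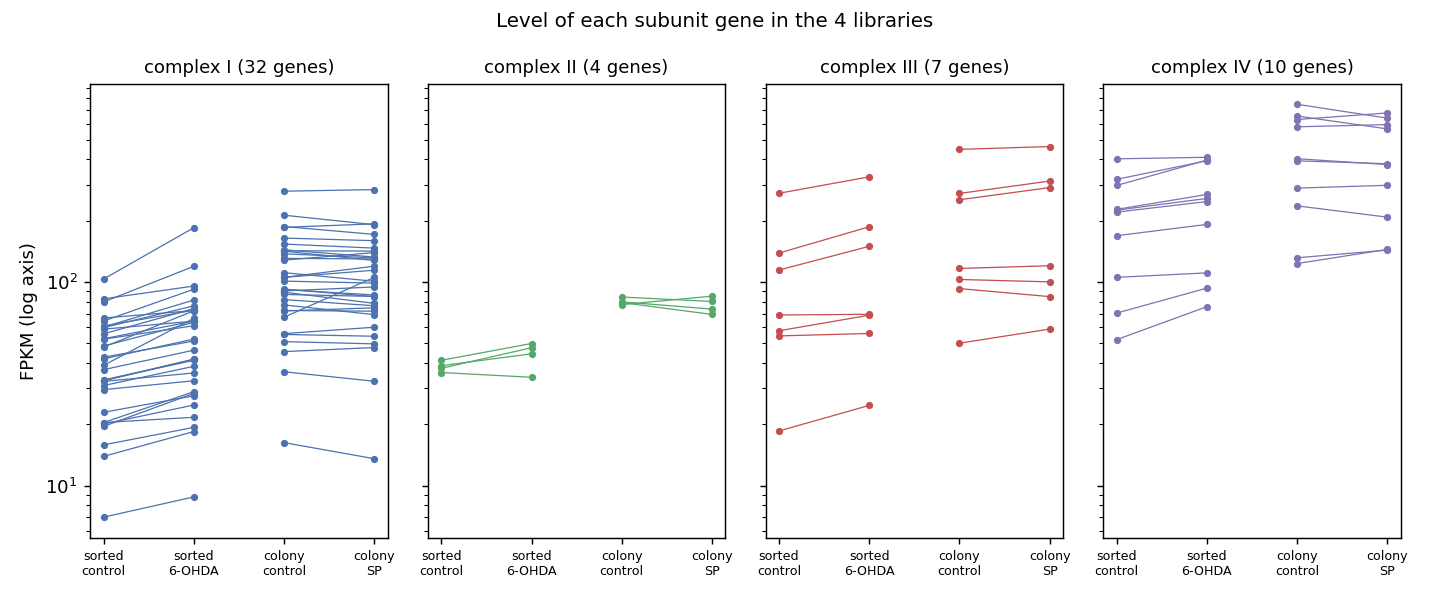
FPKM of each member on a log axis in the 4 libraries, 1 panel per complex, with a line joining the libraries of the same kind of sample. Colony values lie above sorted values for all 53 members, and the complex IV panel holds the highest values, up to 747 FPKM for Ndufa4 in control colonies.

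Levels differed widely between subunits of the same complex, and the order of the members was much the same in all 4 libraries. Spearman's rho across the 53 genes, which are not independent replicates, lay between 0.913 and 0.98 for the 6 pairs of libraries. Complex IV had the highest median, 223 FPKM in sorted control cells, beside 68.9 FPKM for complex III, 40.5 for complex I and 38.25 for complex II. In control colonies the medians were 399, 117, 96.7 and 79.6 FPKM in that order. The most abundant members over the 4 libraries were Ndufa4, Cox4i1, Cox6c, Cox6b1 and Uqcrh, and the least abundant was Ndufa11, a membrane arm subunit of complex I, with 7.0, 8.80, 16.3 and 13.6 FPKM in sorted control cells, sorted 6-OHDA cells, control colonies and SP colonies.

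In sorted cells, 26 of the 53 members were higher in the 6-OHDA library by more than 0.3 on the log2(FPKM + 1) scale, and none was lower by more than 0.3. Of the 11749 genes compared, 15.8% were higher and 8.35% lower by that much. The threshold of 0.3 is the size of change the study used. The study also required a low adjusted p-value, which cannot be computed from 1 library per condition. The counts here rest on size alone and are not comparable with the study's counts of changed genes. The log2(FPKM + 1) scale understates changes of genes with low FPKM. The median difference of the members was 0.30, against 0.06 for all genes, and single members ranged from -0.08 to 0.83. The members were thus higher in a larger share than genes at large, by small amounts, and none was higher by more than 1. Several lay close to the threshold. Ndufa12 and Ndufa4 (both 0.30) were just above it, and Ndufs1 (0.30, a little less than 0.3 before rounding) and Ndufa11 (0.29) just below it. With a median ratio scaling, which brings the typical gene to equal levels in both libraries, 17 members were higher and none lower, beside 1367 of all genes higher and 1338 lower in place of 1857 and 981, and the medians of the members and of all genes were 0.24 and 0.00.

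Complex I held most of the members that were higher in sorted 6-OHDA cells, with 18 of its 32 genes past 0.3 and a median difference of 0.31. Complex II had 1 of 4 and a median of 0.23, complex III 3 of 7 and 0.27, and complex IV 4 of 10 and 0.22. Within complex I, the 6 core subunits, a group that includes the carriers of the flavin and the iron-sulfur clusters, had 2 past the threshold and a median of 0.22. The 10 subunits of the NDUFB group, which sit in the proton-pumping membrane arm, had 6 and a median of 0.35, and the 16 other accessory subunits had 10 and a median of 0.32. The medians of the core and accessory groups were not tested against each other.

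The largest difference was that of Ndufa3 (NCBI Gene 66091, chr7:3617347-3620165, GRCm38.p6), a small membrane-bound accessory subunit of complex I. It was listed at 103 FPKM in sorted control cells, 185 in sorted 6-OHDA cells, 279 in control colonies and 284 in SP colonies. The log2 difference was 0.83 with 6-OHDA, 0.03 with SP and 1.42 between the controls. Ndufa3 was thus lowest in sorted control cells, intermediate in sorted 6-OHDA cells and at nearly equal levels in both colony libraries. Ndufb4 (NCBI Gene 68194, chr16:37647602-37654368), an accessory subunit of the membrane arm, had 39.0 FPKM in sorted control cells, 66.3 in sorted 6-OHDA cells, 142 in control colonies and 142 in SP colonies. Its differences were 0.75, -0.01 and 1.84 in the same order of comparisons, so it too was lowest in sorted control cells and nearly equal in both colony libraries.

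Other complex I accessory subunits followed at smaller size. Ndufa5, a subunit of the matrix arm, was at 47.9 FPKM in sorted control cells and 72.2 in sorted 6-OHDA cells (log2 difference 0.58), and at 105 and 114 FPKM in control and SP colonies. Ndufa1, a small membrane subunit encoded on chromosome X (chrX:37187588-37191238), was at 79.8 and 119 FPKM in the sorted libraries (0.58) and at 131 and 129.8 FPKM in the colonies. In Ndufa1 the sorted 6-OHDA value thus came close to the colony values. Ndufb9, a member of the LYR protein family that sits in the membrane arm, had 64.3 and 92.2 FPKM in the sorted libraries (0.51), and 213 and 191 FPKM in control and SP colonies. Ndufb3 was at 20.4 and 28.9 FPKM in sorted cells (0.48) and at 72.5 and 71.9 FPKM in colonies. Both Ndufb9 and Ndufb3 were more than 3 times as high in control colonies as in sorted control cells.

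The core subunits of complex I are given next. Ndufv1 (NCBI Gene 17995, chr19:4007499-4012755), which binds NADH and the flavin, was listed at 37.1 FPKM in sorted control cells, 46.3 in sorted 6-OHDA cells, 77.2 in control colonies and 69.2 in SP colonies. Ndufv2 (NCBI Gene 72900, chr17:66078795-66101559), its iron-sulfur partner, had 13.9, 18.4, 55.8 and 59.97 FPKM in that order. These were the 2 core subunits past the threshold, with differences of 0.31 and 0.38. Ndufs1, the large iron-sulfur subunit, had 20.1 and 24.9 FPKM in sorted cells and 55.3 and 54.2 FPKM in colonies. The iron-sulfur subunits Ndufs7 and Ndufs8, which lie on the path to ubiquinone, were at 20.4 and 29.6 FPKM in sorted control cells and 21.7 and 32.7 FPKM in sorted 6-OHDA cells, differences of 0.08 and 0.14. Ndufs3 had 32.5 and 35.8 FPKM (0.13). Ndufs3, Ndufs7 and Ndufs8 were within 0.3 of the control with 6-OHDA, yet each was more than 1 higher in control colonies than in sorted control cells, at 86.9, 50.96 and 81.98 FPKM.

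Complex II, or succinate dehydrogenase, is the only one of these complexes encoded wholly in the nucleus, and it also catalyses a step of the citric acid cycle. Sdha (NCBI Gene 66945, chr13:74322255-74350240), the flavoprotein that oxidises succinate, was listed at 38.8 FPKM in sorted control cells, 44.4 in sorted 6-OHDA cells, 79.3 in control colonies and 69.3 in SP colonies. Sdhb (NCBI Gene 67680, chr4:140961271-140979198), the iron-sulfur subunit, had 37.7, 47.6, 84.4 and 80.2 FPKM, and was the only subunit of the complex past 0.3 with 6-OHDA, at 0.33. Under the median ratio scaling none of the 4 was. The membrane anchors bind haem and ubiquinone. Sdhc was at 41.3 and 49.9 FPKM in sorted cells and 79.9 and 73.6 FPKM in colonies. Sdhd (NCBI Gene 66925, chr9:50596340-50603849) was at 35.9 and 34.05 FPKM in sorted cells and 77.5 and 85.2 FPKM in colonies. Sdhd was the only member with a value below 0 with 6-OHDA, -0.08, and Cox4i1, Uqcrc1 and Uqcrfs1 joined it under the median ratio scaling. The 4 subunits had similar levels, between 35.9 and 41.3 FPKM in sorted control cells and between 77.45 and 84.4 FPKM in control colonies.

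In complex III most small subunits differed more with 6-OHDA than the large ones. Uqcrb (NCBI Gene 67530, chr13:66900576-66905350), a small subunit near the ubiquinone-binding site, had 139 FPKM in sorted control cells, 187 in sorted 6-OHDA cells, 254 in control colonies and 291 in SP colonies. Uqcrq was at 18.6, 24.8, 50.1 and 58.7 FPKM, and Uqcr10 at 115, 149.8, 272 and 313 FPKM, in the same order. These 3 were the members of the complex past the threshold, with 0.43, 0.40 and 0.38, also under the median ratio scaling. Uqcrh, the acidic hinge protein that helps cytochrome c to bind, was the most abundant subunit, at 273 and 329 FPKM in sorted cells (0.27) and 448 and 463 FPKM in colonies. Uqcrfs1, the Rieske iron-sulfur protein and the only listed subunit of the complex that carries electrons, was at 54.4 and 55.9 FPKM in sorted cells (0.04) and 92.8 and 84.8 FPKM in colonies. The large core proteins Uqcrc1 and Uqcrc2 had 68.9 and 57.6 FPKM in sorted control cells and 69.4 and 68.7 FPKM in sorted 6-OHDA cells, differences of 0.01 and 0.25. Uqcrc1 (NCBI Gene 22273, chr9:108936648-108949641) also had the smallest difference between the controls of all 53 members, 0.57, with 103 FPKM in control colonies and 100.2 in SP colonies.

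The nuclear-encoded subunits of complex IV surround a catalytic core encoded in mitochondrial DNA, so every member of this group is an accessory subunit. Cox7b (NCBI Gene 66142, chrX:106015700-106022450) had 52.1 FPKM in sorted control cells, 75.7 in sorted 6-OHDA cells, 132 in control colonies and 144 in SP colonies, and with 0.53 the largest 6-OHDA difference of the complex. Cox6c was at 298, 397, 579 and 593 FPKM (0.41 with 6-OHDA), and Cox7a2 at 70.4, 93.4, 123 and 145 FPKM (0.40). These and Ndufa4 were the 4 subunits past the threshold. Cox4i1 (NCBI Gene 12857, chr8:120668225-120674209), the largest nuclear-encoded subunit, which takes part in the regulation of the enzyme by ATP, was at 403 FPKM in sorted control cells, 409.9 in sorted 6-OHDA cells, 654 in control colonies and 565 in SP colonies. The sorted libraries thus hardly differed in Cox4i1 (0.02), and Cox5a differed by 0.07, with 105 and 111 FPKM. Cox6a1, Cox5b, Cox6b1 and Cox8a lay between, at 0.17, 0.18, 0.19 and 0.24.

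**Figure D2:**
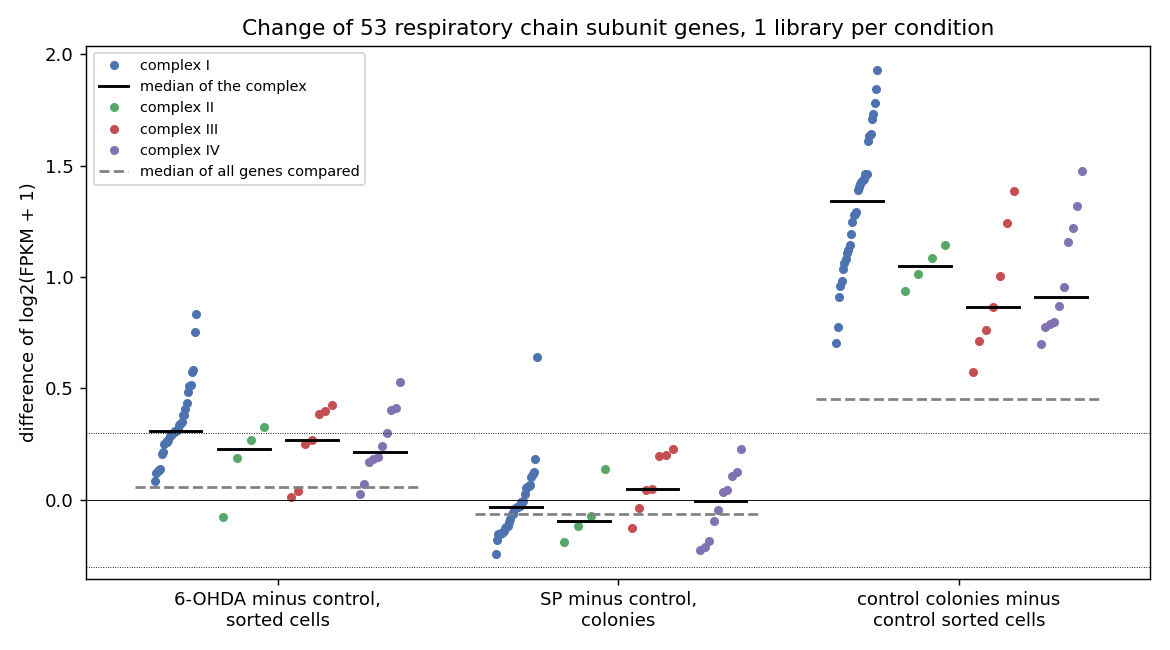
Difference of log2(FPKM + 1) for each member (points, coloured by complex) in the 3 comparisons, with the median of each complex (black lines), the median of all genes compared (grey dashed lines) and the threshold of 0.3 in both directions (dotted lines). Members lie mostly above the median of all genes with 6-OHDA, around 0 with SP apart from Ndufv3 at 0.64, and all above 0.5 between the controls.

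Transcripts of other cells and of dividing cells also differed between the sorted libraries. Markers of salivary gland summed to 1.3 FPKM in sorted control cells, where 5 of 6 were listed at 0, and to 15340 FPKM, 2.96 percent of all FPKM, in sorted 6-OHDA cells, led by Bpifa2. With libraries rescaled to the same sum 21 members were higher, and with these genes left out of that sum 29, with a median of 0.32. All genes went the same way, from 15.8% to 19.5% higher and from a median of 0.03 to 0.07. This changes the scaling only, and leaves in any subunit transcripts that came with the salivary ones. Fibroblast markers summed to 174.9 and 367 FPKM with none of 6 at 0, Dcn being the highest and Col3a1, Col1a1 and Col1a2 differing most (2.26, 1.91 and 1.68), adipocyte markers to 213 and 377 FPKM with 0 and 1 of 6 at 0, nearly all of it Fabp4 (210.2 and 374 FPKM) while Adipoq, Cidec and Lep were lower with 6-OHDA, and markers of dividing cells to 12.2 and 33.8 FPKM with none of 5 at 0, led by Ube2c. The part of the salivary, fibroblast and dividing cell transcripts in the higher values of the members was not tested. Basal markers summed to 9502 and 8455 FPKM, with Krt14 and Krt17 lower (-0.45 and -0.46), Acta2 higher (0.40) and a median of 0.09. In bulk samples such as these, a change in the share of a cell type and a change in RNA per cell cannot be told apart.

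Between control colonies and SP colonies the members hardly differed. Ndufv3 was the only one of the 53 higher by more than 0.3 in SP colonies and none was lower, where 11.7% of 11849 genes were higher and 19.8% lower. The median difference of the members was -0.03, against -0.07 for all genes, and the members ranged from -0.25 to 0.64. The medians were -0.03 for complex I, -0.09 for complex II, 0.05 for complex III and -0.01 for complex IV. A direction cannot be read from values this close to 0, since the median of all members was 0.04 under the median ratio scaling and -0.08 under quantile normalization. Cox7a2 also passed 0.3 under the former, and Cox4i1 and Ndufa4 were lower by more than 0.3 under the latter. The median ratio scaling gave 1754 of all genes higher and 1766 lower in place of 1385 and 2351.

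Ndufv3 (NCBI Gene 78330, chr17:31520115-31531326), an accessory subunit bound to the NADH-oxidising module of complex I, was listed at 19.6 FPKM in sorted control cells, 28.4 in sorted 6-OHDA cells, 67.2 in control colonies and 105 in SP colonies. Its log2 differences were 0.52 with 6-OHDA, 0.64 with SP and 1.73 between the controls, so that the values rose from library to library in the order given. It was the only member past 0.3 in both treatment comparisons. The members next to it with SP were Cox7a2 (0.23), Uqcrq (0.23), Uqcr10 (0.20), Uqcrb (0.20) and Ndufa2 (0.18), all within 0.3. At the other end were Ndufa11 (-0.25), Ndufa4 (-0.23), Cox4i1 (-0.21), Sdha (-0.19) and Cox5a (-0.18). The catalytic subunits Sdha and Sdhb had 69.3 and 80.2 FPKM in SP colonies, beside 79.3 and 84.4 FPKM in control colonies.

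The 6-OHDA and SP comparisons have separate controls. Of the 53 members, 25 were higher by more than 0.3 with 6-OHDA and within 0.3 with SP, 27 were within 0.3 in both, and Ndufv3 was higher in both, against 10.04%, 56.5% and 2.83% of 10799 genes. Whether the responses to 6-OHDA and SP differ was not tested, since cells and culture differ as well as the agents.

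Other genes moved strongly in SP colonies. The basal markers summed to 6404 FPKM in control colonies and 14260 FPKM in SP colonies, and the markers of dividing cells to 154 and 273 FPKM, while the members stayed within 0.3 apart from Ndufv3. Fibroblast markers summed to 39.1 and 12.7 FPKM, adipocyte markers to 38.3 and 1.6 FPKM and endothelial markers to 11.95 and 3.13 FPKM. Skeletal muscle markers summed to 20.2 and 37.2 FPKM. Cited1 of the luminal list (-1.45) and Oxtr of the basal list (-0.31) were lower with SP. Of 6 genes listed for their response to low oxygen and their ties to energy metabolism, 5 were higher by more than 0.3 with SP, with a median of 1.73. Bnip3, a receptor for the removal of mitochondria, went from 12.8 to 111 FPKM, Egln3, an oxygen-sensing prolyl hydroxylase, from 3.92 to 16.4 FPKM, and Higd1a, a protein that binds respiratory complexes, from 22.7 to 78.4 FPKM. Ldha, which makes lactate, went from 341 to 1121 FPKM with SP (1.71), against -0.23 with 6-OHDA and -0.72 between the controls. With 6-OHDA, 2 of the 6 genes were higher by more than 0.3, Bnip3 (0.93) and Egln3 (0.49), and none was lower by that much. Between the controls 2 of the 6 were higher and 2 lower by more than 0.3, with a median of -0.08. Egln3 fell most there (-1.89), from 17.2 FPKM in sorted control cells, so its level in SP colonies was close to that of sorted control cells. The subunit paralogue Ndufa4l2, itself induced by low oxygen in many cells, was listed at 4.18 FPKM in sorted control cells, 4.83 in sorted 6-OHDA cells, 0.72 in control colonies and 71.03 in SP colonies. Set against Ndufa4 in the same library, its FPKM was 1.31, 1.23, 0.0964 and 11.1 percent of the level of Ndufa4. Ndufa4 itself was at 319.6, 394, 747 and 639 FPKM, so its own level in SP colonies was slightly below that in control colonies while its paralogue rose.

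Paralogues that replace complex IV members in other tissues or conditions were otherwise low. Cox4i2, the paralogue of Cox4i1, was listed at 0.88, 1.42, 6.84 and 3.91 FPKM in sorted control cells, sorted 6-OHDA cells, control colonies and SP colonies, at most 1.05 percent of Cox4i1. Cox7a1, a form typical of heart and skeletal muscle, had 1.19, 0.66, 11.1 and 5.16 FPKM, which was 1.69, 0.707, 8.98 and 3.57 percent of Cox7a2. Both were highest in control colonies, whereas Cox6b2, the paralogue of Cox6b1, had 6.40, 6.92, 4.73 and 5.70 FPKM and was lowest there. Cox7a2l, which helps to join complexes III and IV into supercomplexes, was at 157, 145, 154 and 134 FPKM. Unlike the members it was not higher in colonies, and its level went from 222 percent of that of Cox7a2 in sorted control cells to 155, 125 and 92.9 percent in the other libraries.

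The largest differences of the members lay between the control libraries. All 53 members were higher by more than 0.3 in control colonies than in sorted control cells and none was lower, where 55.7% of 12244 genes were higher and 26.6% lower. By more than 1, 37 members were higher, as were 30.7% of the genes. The median difference was 1.16, against 0.45 for all genes, and the members ranged from 0.57 to 1.93. This comparison joins culture, growth and shifts in cell types, which cannot be told apart here. It shares the sorted control library with the 6-OHDA comparison and the control colony library with the SP comparison, so the values of a member in them are not independent.

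The size of the differences between the controls depended on the scaling, for the members and for all genes. With quantile normalization the medians were 1.04 for the members and 0.13 for all genes. The median ratio scaling moved the median of all genes from 0.45 to 0.00 and that of the members from 1.16 to 0.65, with 53 members above 0, 44 higher by more than 0.3 and none lower, beside 4855 of all genes higher and 4826 lower in place of 6817 and 3252. The median of complex I was then 0.84, of complex II 0.55, of complex III 0.36 and of complex IV 0.40. With the treated libraries in place of the controls, SP colonies against sorted 6-OHDA cells, 52 members were higher and the median was 0.82, against 50.6% and 0.32 for 12234 genes. Among the 516 other genes averaging 20 FPKM or more and having a transcript of up to 1000 bases, 394 were higher by more than 0.3 and 60 lower, with a median of 0.81. Abundant short transcripts in general were therefore higher in control colonies than in sorted control cells. Beside their median of 0.81, complex I had 1.34, complex II 1.05, complex III 0.86 and complex IV 0.91. The difference between the members and these genes was not tested. In the 6-OHDA comparison the same kind of genes had a median of 0.12, with 125 of 520 higher and 23 lower, and in the SP comparison 0.01, with 68 of 512 higher and 53 lower.

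Complex I again led, with a median difference of 1.34 between the controls and 27 of its 32 members higher by more than 1, followed by complex II with 1.05 and 3 of 4, complex IV with 0.91 and 4 of 10, and complex III with 0.86 and 3 of 7. All 6 core subunits of complex I were higher by more than 1. Ndufv2 had the largest difference of all members, 1.93, a level 4.01 times that of sorted control cells. Ndufb4 (1.84), Ndufb3 (1.78), Ndufv3 (1.73) and Ndufb9 (1.71) came next. Ndufb7, a subunit with cysteine motifs on the side of the intermembrane space, went from 48.5 FPKM in sorted control cells to 154 in control colonies (1.64), with 63.4 FPKM in sorted 6-OHDA cells and 147 in SP colonies. Ndufb8 was at 60.1, 81.6, 186 and 193 FPKM in sorted control cells, sorted 6-OHDA cells, control colonies and SP colonies (1.61). The matrix arm subunit Ndufa6 was at 59.7, 76.4, 187 and 171 FPKM in that order (1.63). Complex I members with the smallest differences were Ndufa1 (0.70), Ndufb6 (0.78), Ndufb11 (0.91), Ndufb2 (0.96) and Ndufa7 (0.98).

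Ndufa9, which lies next to the ubiquinone-binding site, Ndufa8, which faces the intermembrane space, and Ndufa10, which resembles a nucleoside kinase, had nearly the same levels and differences. They were at 32.7, 32.9 and 33.1 FPKM in sorted control cells, 41.7, 41.8 and 41.2 in sorted 6-OHDA cells, 91.8, 92.4 and 89.2 in control colonies, and 86.4, 84.8 and 78.6 in SP colonies. Ndufs4, an accessory subunit whose loss causes a fatal brain disease in mice, was at 15.8, 19.3, 36.2 and 32.5 FPKM, among the lowest of the members. Ndufa13, also called GRIM-19, was at 55.6, 74.1, 138 and 131 FPKM, with differences of 0.41 with 6-OHDA and 1.29 between the controls. Ndufb5 and Ndufb10, both of the membrane arm, had 41.95 and 66.6 FPKM in sorted control cells, 52.5 and 72.4 in sorted 6-OHDA cells, 101 and 142 in control colonies, and 98.8 and 128 in SP colonies, and with 6-OHDA Ndufb10 (0.12) differed less than Ndufb5 (0.32). In each of these 7 genes the sorted 6-OHDA value lay between the sorted control value and the colony values.

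The other complexes had their own leaders in culture. In complex III, Uqcrq (1.38) and Uqcr10 (1.24) were ahead of Uqcrc2 (1.004) and Uqcrb (0.86), and Uqcrfs1 (0.76), Uqcrh (0.71) and Uqcrc1 (0.57) were last. In complex IV, Cox6b1, which faces the intermembrane space, went from 226 FPKM in sorted control cells to 629 in control colonies (1.47), with 257 FPKM in sorted 6-OHDA cells and 677 in SP colonies. Cox7b (1.32), Ndufa4 (1.22) and Cox5a (1.16) were also higher by more than 1, and Cox4i1 was last, at 0.70. In complex II the 4 differences were close, from 0.94 for Sdhc to 1.14 for Sdhb. Cox4i1, Uqcrc1 and Uqcrfs1 were thus near the bottom of their complexes both with 6-OHDA and in culture, comparisons that share the sorted control library.

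Markers of dividing cells, of basal and luminal cells and of other cell types also differed between the controls. Luminal markers were higher by more than 0.3 in 7 of 8 genes (median 1.35), most in Elf5 (3.85), Prom1 (2.21) and Cited1 (1.99), with sums of 1067 FPKM in sorted control cells and 1511 FPKM in control colonies. Basal markers were higher in 1 of 8 and lower in 5 (median -1.14), with sums of 9502 and 6404 FPKM, and no gene of either list was at 0. Markers of dividing cells summed to 12.2 FPKM in sorted control cells and 154 FPKM in control colonies, with none of 5 at 0, led by Top2a in the latter. Endothelial markers summed to 240.3 and 11.95 FPKM and fibroblast markers to 174.9 and 39.1 FPKM, with none at 0, where Dcn made most of the fall, Pdgfra was higher and Col1a2 was within 0.3, adipocyte markers to 213 and 38.3 FPKM, a fall made by Fabp4 while Adipoq, Plin1 and Cidec were higher in control colonies, and leukocyte markers to 12.35 and 3.37 FPKM, with 3 of 6, Ptprc, Cd3e and Csf1r, at 0 in control colonies. Their part in the higher values of the members was not tested. Skeletal muscle markers summed to 1.14 and 20.2 FPKM, of which Acta1 made up 19.9 FPKM in control colonies, where Myl1 and Tnnt3 were at 0.

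Genes that work with the members were also counted, with the all-gene shares given above beside them. The 8 further nuclear-encoded subunits of complexes I to IV outside the given list had 5 higher with 6-OHDA (median 0.46), none past 0.3 with SP (median 0.08) and 8 higher between the controls (median 1.51). Among them Cox7c of complex IV was at 193, 304, 708 and 769.5 FPKM, Ndufc1 of complex I at 31.7, 47.8, 185 and 216 FPKM, and Ndufab1, the mitochondrial acyl carrier protein, at 35.8, 55.3, 109 and 113 FPKM. With SP the largest of these differences were Ndufb1 (0.25) and Ndufc1 (0.22), and between the controls Ndufc2 (1.79) followed Ndufc1 (2.51) and Cox7c (1.87). ATP synthase, or complex V, makes ATP from the proton gradient, and 8 of its 17 subunit genes were higher with 6-OHDA (median 0.27), none was past 0.3 with SP (0.07) and 16 were higher between the controls (1.23). The largest differences were Atp5g2 (0.51), Atp5l (0.44) and Atp5c1 (0.43) with 6-OHDA, Atp5md (0.27), Atp5k (0.25) and Atp5j (0.20) with SP, and Atp5g2 (1.84), Atp5c1 (1.65) and Atp5o (1.52) between the controls. The catalytic subunit gene Atp5b was the exception between the controls, at 587 and 665 FPKM.

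Of the factors that assemble complexes I to IV, 13 of 41 compared were higher with 6-OHDA (median 0.16) and none lower. With SP, 6 of 42 were higher and 3 lower (0.00), and between the controls 35 of 41 were higher and 3 lower (1.402). Tmem126b, needed to build complex I, was at 1.74, 4.29, 12.4 and 12.9 FPKM. Sdhaf4 and Sdhaf3, which assemble complex II, went from 2.33 and 1.12 FPKM in sorted control cells to 25.99 and 11.9 FPKM in control colonies, larger differences (3.02 and 2.61) than those of the complex II subunits themselves. With SP, Surf1 (-0.48), Cox17 (0.41) and Coa6 (0.38), which act on complex IV, differed most.

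The citric acid cycle, which feeds electrons to complexes I and II, had 6 of 14 genes higher with 6-OHDA (0.24), 1 lower with SP (Idh3g, -0.35) and 12 higher between the controls (0.92), where Ogdh was lower (-0.54). Idh3a (0.40), Sucla2 (0.37) and Fh1 (0.36) differed most with 6-OHDA, Idh3b (-0.20) and Suclg1 (0.19) followed Idh3g with SP, and Fh1 (1.39), Suclg1 (1.15) and Idh2 (1.13) led between the controls. Electron carriers and transporters had 4 of 10 higher with 6-OHDA (0.29), 1 with SP (Cycs, cytochrome c, 0.45) and 6 between the controls (0.74). Vdac1 (0.39), Vdac3 (0.36) and Etfa (0.34) led with 6-OHDA and also between the controls (1.31, 1.25 and 1.68), and after Cycs came Etfdh (-0.18) and Vdac1 (0.17) with SP. The genes of mitochondrial ribosomes had 26 of 78 higher and 2 lower with 6-OHDA (0.21), 4 higher and 1 lower with SP (0.08), and 70 higher and 2 lower between the controls (1.19). Their largest differences were Mrpl1 (0.90), Mrpl52 (0.57) and Mrps35 (0.54), then Mrpl54 (0.42), Mrpl33 (0.41) and Mrpl32 (0.39), then Mrps35 (2.38), Mrpl40 (2.18) and Mrpl10 (2.14), in the same order of comparisons. Genes of cytosolic ribosomes had 1 of 76 higher with 6-OHDA (0.06), none past 0.3 with SP (-0.05), and 61 higher and 1 lower between the controls (0.46), with medians close to those of all genes. Rpl39 (0.42), Rpl36a (0.27) and Rpl23 (0.25) differed most with 6-OHDA, Rps15 (-0.19), Rpl41 (0.19) and Rpl3 (-0.19) with SP, and Rpl34 (-2.70), Rpl39 (1.09) and Rps26 (1.07) between the controls.

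Regulators of mitochondrial biogenesis had medians near those of all genes in the 3 comparisons, and their difference from the members was not tested. None of the 13 compared was past 0.3 with 6-OHDA (median -0.01), where the members' median was 0.30. With SP, Tfb1m was higher and Twnk lower (0.37 and -0.39), followed by Ppargc1b (-0.24), and between the controls 8 of 14 were higher and 3 lower (0.44), led among the higher by Esrra (1.78) and Tfb1m (1.62). Esrra, a nuclear receptor that acts on respiratory genes, was at 5.20, 5.02, 20.4 and 20.97 FPKM in sorted control cells, sorted 6-OHDA cells, control colonies and SP colonies. Pprc1, a coactivator, went the other way, at 49.1, 39.8, 9.66 and 9.35 FPKM. The coactivator Ppargc1a was at 1.13 FPKM or less in all 4 libraries, and Nrf1, which binds promoters of respiratory genes, at 16.2, 13.1, 16.9 and 14.8 FPKM.

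**Figure D3:**
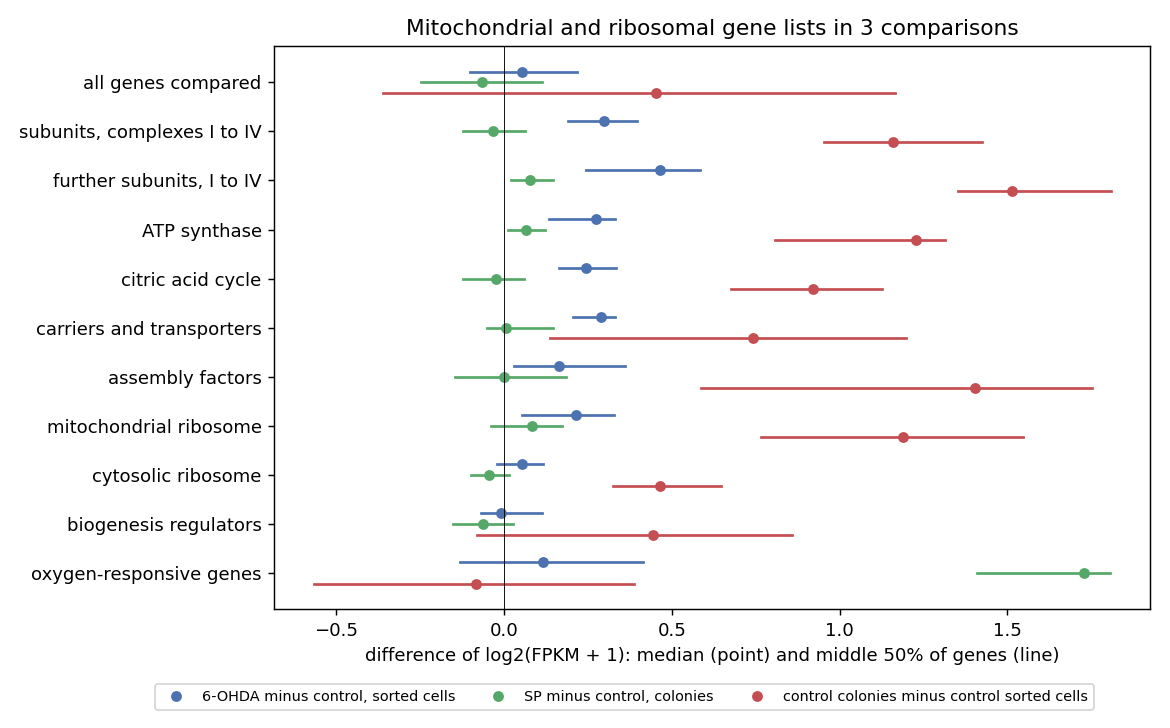
Median difference of log2(FPKM + 1) (points) and the range of the middle 50% of genes (lines) for each gene list in the 3 comparisons. The members, ATP synthase and mitochondrial ribosome lie near each other in all 3, biogenesis regulators lie near all genes, and oxygen-responsive genes stand apart with SP at a median of 1.73.

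Most members have short transcripts. Their median transcript length was 745 bases, from 382 to 2900, against 2598 bases for all genes with an annotated length. Across the 53 members, length and difference had a Spearman's rho of -0.212 with 6-OHDA, -0.22 with SP and 0.049 between the controls, against -0.069, -0.092 and -0.19 for all genes compared, given as a description of genes that share a library. Members of up to 700 bases had a median difference of 0.31 with 6-OHDA, 0.03 with SP and 1.14 between the controls, and longer ones 0.27, -0.07 and 1.19. Most of the longer members were still below the median length of all genes, and Sdha (2900 bases) and Ndufs1 (2626 bases) were above it. The part of transcript length in the differences was not tested. The genes lie on 18 chromosomes, at most 5 on any of them.

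Some members share sequence with other genes, so that their FPKM is less certain. At 95% identity or more over 50% or more of a transcript, 7 members had 9 copies elsewhere, Uqcrb with 3 of them, and Cox5b, Ndufa12, Ndufb11, Ndufs3, Ndufs5 and Ndufs6 with 1 each. The copy of Ndufs6, Ndufs6b, was the only one among the listed genes. Exons of Ndufb6, Ndufa13 and Uqcrc2 overlap those of Smim27, Tssk6 and Pdzd9 on the opposite strand over 39.0, 30.0 and 26.6 percent of their length, and 9 other members overlap a neighbour over smaller shares. Whether fragments were counted by strand is not given in the sources used here.

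Promoters of the members were read, 250 bases before to 50 bases after an annotated start, from RefSeq on GRCm38.p6. For some members, such as Cox5a, Cox7a2 and Ndufs7, that start lies inside the gene and not at its first base. Of the 53 members, 44 had an entry, with 46 promoters. The NRF1 core GCATGCGC was found on either strand in 6 of the 46 (13.0%), against 4.15% of the 17390 promoters of listed genes and 2.71% of all 32851. The YY1 motif AAGATGGCG was in 4 (8.7%, against 2.21% and 1.4%), the core of ETS factors such as GABP, CCGGAAGT, in 3 (6.52%, against 6.14% and 3.89%), and the core of hypoxia response elements, ACGTG, in 9 (19.6%, against 23.0% and 19.6%). A promoter with several matches, such as NRF1 cores that share bases on both strands, was counted once per motif. These are matches of letters and not binding sites. The NRF1 core lay in Cox6a1, Ndufa11, Ndufa6, Ndufa8, Sdhb and Uqcrc1, with 6-OHDA differences from 0.01 to 0.35, the YY1 motif in Ndufa9, Ndufs4, Ndufs6 and Ndufs7, and the ETS core in Cox8a, Ndufs3 and Uqcrh. Members with a match thus included both those past 0.3 with 6-OHDA and those near 0.

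The 150 bases before the start are given for 5 of these members, chosen because the match lies within them and because they cover complexes I, II and III. They run 5′ to 3′ on the strand of the gene, with the match in capitals, the NRF1 core in the first 4 and the ETS core on the opposite strand in Uqcrh. They lie at chr15:82354292-82354441 (minus strand) for Ndufa6, chr2:36049339-36049488 (minus) for Ndufa8, chr17:56717612-56717761 (plus) for Ndufa11, chr4:140961121-140961270 (plus) for Sdhb and chr4:116075071-116075220 (minus) for Uqcrh.
Ndufa6: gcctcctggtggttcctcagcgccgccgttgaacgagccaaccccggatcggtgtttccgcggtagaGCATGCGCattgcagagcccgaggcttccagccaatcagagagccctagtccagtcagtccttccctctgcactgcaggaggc
Ndufa8: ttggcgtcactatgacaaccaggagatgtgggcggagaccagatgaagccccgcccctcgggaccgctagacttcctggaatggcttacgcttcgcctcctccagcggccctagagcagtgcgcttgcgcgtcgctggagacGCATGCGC
Ndufa11: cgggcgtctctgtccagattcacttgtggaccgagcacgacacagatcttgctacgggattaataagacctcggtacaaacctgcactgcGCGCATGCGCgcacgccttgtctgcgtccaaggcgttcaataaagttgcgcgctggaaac
Sdhb: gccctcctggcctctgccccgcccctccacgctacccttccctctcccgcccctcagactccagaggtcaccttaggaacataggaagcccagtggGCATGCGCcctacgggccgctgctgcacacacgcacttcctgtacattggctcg
Uqcrh: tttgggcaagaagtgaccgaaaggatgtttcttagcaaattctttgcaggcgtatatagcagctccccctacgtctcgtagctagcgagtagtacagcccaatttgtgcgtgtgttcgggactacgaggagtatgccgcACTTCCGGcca
In Ndufa8 the match ends at the base before the start, and in Ndufa11 the capitals hold a match on each strand. Between the controls these members differed by 1.63, 1.46, 1.11, 1.14 and 0.71 in the order printed, and with 6-OHDA by 0.35, 0.34, 0.29, 0.33 and 0.27.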

How the data were processed

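The values read here were FPKM of 17630 genes per library, made by the authors and listed by NCBI gene identifier. The authors name RSEM 1.3.1, Bowtie2, DESeq2 1.4.5 and the mm10 build without saying what each was used for. Gene identifiers were matched to symbols and positions of RefSeq on GRCm38.p6, which matched 17512 genes and left 118 unmatched. Strands, transcript lengths, sequence copies and exon overlaps came from the GENCODE mouse annotation instead. The length of a gene was the median over its protein-coding transcripts there. Differences were taken on log2(FPKM + 1) for genes averaging 1 FPKM or more in the pair compared, and 0.3 was the threshold. No count test was run, since FPKM are not counts, and no paired analysis was possible because each condition had 1 library. Members and lists were chosen with earlier results of these data known. Genes named in full were the 5 highest and 5 lowest differences and the 5 highest levels of each complex, the complex I core, all of complex II and up to 3 of the largest differences of each other list; for marker lists the sum and highest gene were given in place of these, and any other gene was named after its values were seen. Code was tested on made-up tables with known differences. The work was done with pandas 2.3.3, numpy 2.4.6 and scipy 1.17.1 in Python 3.11.15, and drawn with matplotlib 3.10.9.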

Additional observations from a re-analysis of the deposited data

How the results depend on the processing

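The count of members higher with 6-OHDA was 17 with the median ratio scaling and 0 at a threshold of 1. With SP, 2 members were higher with the median ratio scaling and 0 at a threshold of 1, and 2 were lower with quantile normalization. The median between the controls was 0.99 with libraries rescaled to the same sum, also without salivary genes, 0.65 with the median ratio scaling, 1.04 with quantile normalization and 0.82 with the treated libraries in place of the controls, an alternative added after the data were seen. Of 193 alternative values 164 stayed the same, 29 moved by more than 0.1 (medians) or 1.5 times (counts), and 0 reversed. Only values past the threshold could count as reversed, and the SP medians near 0 of all members and of complexes I and IV changed sign with the median ratio scaling, as did that of complex III with quantile normalization. With 1 library per condition, differences between animals, cultures and library preparations cannot be told apart from those between conditions, and no count test was run.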
